A study of Mus musculus with 10 samples.

Results

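The 7 integrin chains described here are Itgae, Itgb7, Itga4, Itgb1, Itgal, Itgb2 and Itga6, measured in mouse CD4 T cells on 10 Affymetrix mouse 430 2.0 oligonucleotide arrays. They were taken as the probe sets annotated to one of these genes alone, which gave 19 of the 45101 probe sets on the array and 7 of the 18194 genes with a probe set of their own. Where a chain had several probe sets, the brightest on average over the 10 arrays was used and the others served as a check. All 7 chains passed the filter on dim genes, which kept 11939 genes with a probe set at or above the array's own median on at least 1 array, and each chain lay above that median on all 10 arrays. Levels are log2 expression values, so a difference of 1 is a 2-fold difference.

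Integrins are cell surface receptors made of an alpha and a beta chain, and a chain reaches the surface only with a partner. The alpha E chain (Itgae, CD103) pairs with beta 7 (Itgb7) and holds T cells at epithelium through E-cadherin. The alpha 4 chain (Itga4) pairs with beta 7 for homing to the gut through MAdCAM-1, or with beta 1 (Itgb1) for binding VCAM-1 and fibronectin. The alpha L chain (Itgal) and beta 2 (Itgb2) form LFA-1, which binds ICAM-1 on other cells, and alpha 6 (Itga6) joins beta 1 to bind laminin. CD103 is known as a surface marker of a subset of regulatory T cells, the suppressive CD4 T cells whose lineage factor is Foxp3.

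All cells were labelled as pooled lymph node and spleen of female mice 6 to 8 weeks old, with 1 array for each of 10 groups. Foxp3(gfp/gfp) mice, backcrossed to C57BL/6 from 129/Sv for 8 to 10 generations, make a fusion of GFP and Foxp3 from both alleles. They gave GFP- CD25- cells (CD25neg), GFP- CD25+ cells (CD25pos), CD25 being the IL-2 receptor alpha chain, and GFP+ cells (GFPfoxp3). Foxp3(gfpko/wt) females, backcrossed for 5 generations, make GFP in place of Foxp3 from one allele of this X-linked gene, and their GFP+ cells (GFPko) transcribe the mutant locus in a body that also holds normal regulatory T cells. A further array of each of CD25pos, GFPko and GFPfoxp3 came from mice injected 4 times within a day (24 h) with IL-2, 50 ng per g of body weight, the cells being collected 30 min after the last injection. For the other 3 arrays, CD25+ CD4+ cells of C57BL/6 mice were stimulated in culture with anti-CD3, anti-CD28 and IL-2. They were transduced with the GFP-marked retroviral vector MigR1, either empty or carrying PDE3B or PDE3B with the substitution H801A. Each was transferred, mixed with CD25- cells from Ly5.1+ mice given the same vector, into mice lacking T cell receptor alpha. The cells sorted 3 weeks later carried GFP, CD4 and GITR and lacked Ly5.1. The labels do not give the number of mice behind an array or say whether the untreated mice received vehicle.

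The 3 arrays of transduced cells stood apart from the 7 of freshly sorted cells. Their 3′ probe set of Actb exceeded the 5′ one by 5.87 to 6.38 log2 units, against 2.70 to 3.80 in the sorted cells, a gap that is wider where RNA or cRNA is shorter. Cd4, present in every sort, read 10.30 to 10.78 in the sorted cells and 8.05 to 9.29 in the transduced ones. Foxp3 read 2.45 to 3.90 in the GFP- cells, 8.33 and 9.39 in GFPko, 10.86 on both GFPfoxp3 arrays and 11.26 to 11.52 in the transduced cells. In bulk samples such as these, fewer cells with a transcript and less transcript per cell cannot be told apart.

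No group has a replicate array. For GFPfoxp3, GFPko and CD25pos cells, each with and without IL-2, limma fitted population and IL-2 as additive effects over 6 arrays and all 11939 genes. Its spread, on 2 residual degrees of freedom and moderated over all genes, mixes differing responses of the populations to IL-2 with variation between single arrays. These cannot be told apart, and p-values measure that spread and not the variation between replicate mice of a group. A chain is called where its Benjamini-Hochberg adjusted p is under 0.05. All further comparisons set 1 array against 1 and have no test; a difference of at least 2-fold is the mark used to describe them.

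RefSeq promoter sequences were at hand for 3 of the 7 chains, Itgb7, Itga4 and Itgb1. The windows of Itga4 and Itgb1 are shown because these chains can form one receptor and yet differed in opposite directions between GFPfoxp3 and GFPko cells. Each is the 250 bases before the gene's start on the plus strand of GRCm38.p6, for Itga4 chr2:79255176-79255425 and for Itgb1 chr8:128685404-128685653, and capitals mark a match to one of 5 searched motifs.
Itga4: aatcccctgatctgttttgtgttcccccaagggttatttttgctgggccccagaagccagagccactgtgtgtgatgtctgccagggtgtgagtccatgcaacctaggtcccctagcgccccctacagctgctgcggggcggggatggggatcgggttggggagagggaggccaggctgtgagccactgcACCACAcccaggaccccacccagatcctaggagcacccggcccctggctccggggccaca
Itgb1: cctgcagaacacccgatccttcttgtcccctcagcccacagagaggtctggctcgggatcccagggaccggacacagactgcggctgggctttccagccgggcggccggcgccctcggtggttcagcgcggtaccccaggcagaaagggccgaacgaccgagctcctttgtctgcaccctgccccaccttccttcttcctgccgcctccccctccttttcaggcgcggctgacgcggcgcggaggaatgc
The motifs were searched on both strands, and no motif contains another. The forkhead motif GTAAACA is found in 3.17% of the 32851 RefSeq windows of this length, the RUNX motif TGTGGT in 14%, the SMAD motif GTCTAGAC in 0.167%, the STAT motif TTCNNNGAA in 7.02% and the ETS motif CCGGAAGT in 2.88%. The capitals in the Itga4 window are a RUNX match on the minus strand, beginning 60 bases before the start. The Itgb1 window, and that of Itgb7 at chr15:102231936-102232185 on the minus strand, held none of the 5. GC content was 64% in the Itga4 window, 68% in that of Itgb1 and 56% in that of Itgb7.

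The alpha E chain varied most of the 7. Itgae read 4.23 in CD25neg, 5.82 in untreated and 5.68 in IL-2-treated CD25pos cells, and 7.04 and 6.70 in untreated and IL-2-treated GFPko cells. It read 11.28 in GFPfoxp3 cells and 11.09 after IL-2. With the empty, PDE3B and H801A vectors it read 12.93, 12.96 and 12.92. On this probe set, 1447541_s_at, the populations formed steps that did not overlap, from CD25neg through CD25pos and GFPko to GFPfoxp3 and the transduced cells, over a range of 8.74 log2 units. On the second probe set, 1449216_at, the last step overlapped, the PDE3B array reading 10.92 and untreated GFPfoxp3 cells 10.93. Neighbours in this order that lay within the SD of a difference between 2 arrays (0.15, from the fitted spread) were the 3 vectors among themselves and the 2 CD25pos arrays. Its partner Itgb7 was bright everywhere and spanned only 0.83. Itgb7 read 12.37 in CD25neg, 12.10 and 12.18 in CD25pos without and with IL-2, 12.47 and 12.75 in GFPko, 12.93 and 12.88 in GFPfoxp3. In transduced cells Itgb7 read 12.65 (empty), 12.10 (PDE3B) and 12.44 (H801A). The highest Itgb7 levels were in GFPfoxp3 cells, as for Itgae among the sorted cells. The 2 GFPfoxp3 arrays, GFPko after IL-2 and the empty vector followed each other within the SD of a difference of 0.18.

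**Figure D1:**
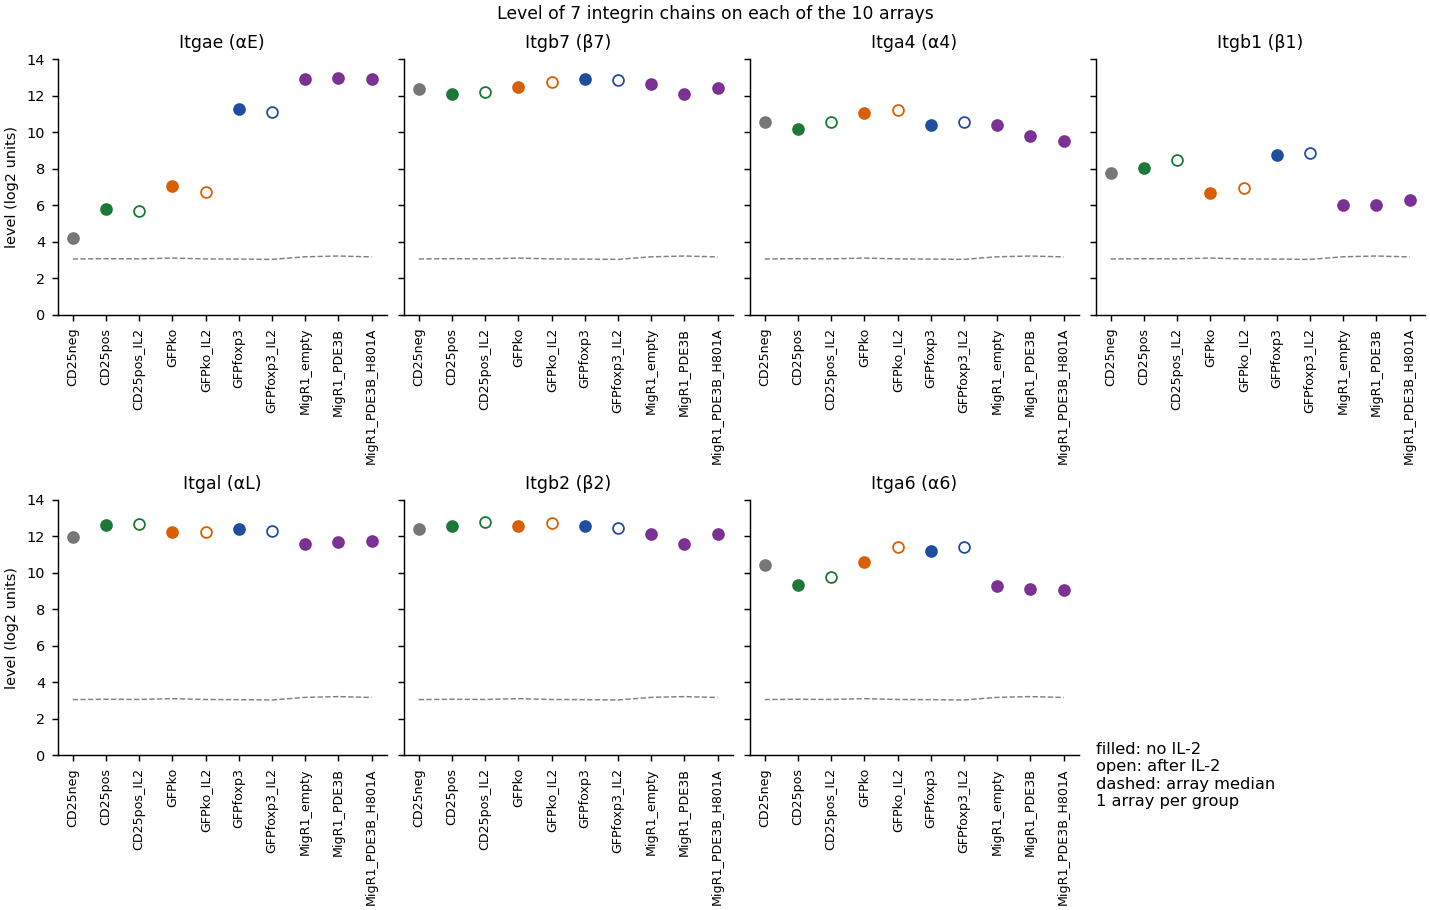
Level of each chain (log2 units, vertical axis) on the 10 arrays (horizontal axis), with 1 point per array, open points for arrays after IL-2 and a dashed line at the array median. Itgae climbs from 4.23 in CD25neg to 12.96 with the PDE3B vector, while Itgb7, Itgal and Itgb2 stay between 11.58 and 12.93.

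On the probe sets used, the alpha 4 and beta 1 chains stood at opposite ends in GFPko cells, alpha 4 highest and beta 1 lowest of the sorted populations. Itga4 read 11.05 in untreated and 11.23 in IL-2-treated GFPko cells, above every other array on this probe set. The remaining sorted cells gave 10.56 in CD25neg, 10.17 and 10.58 in CD25pos and 10.37 and 10.54 in GFPfoxp3, untreated first. With the empty, PDE3B and H801A vectors Itga4 read 10.41, 9.81 and 9.50. Apart from the GFPko arrays at the top and 3 arrays at the bottom (CD25pos, PDE3B and H801A), the levels followed each other within the SD of a difference of 0.16. Itgb1 read 6.69 in untreated and 6.92 in IL-2-treated GFPko cells, the lowest of the sorted cells. It read 7.75 in CD25neg, 8.03 and 8.46 in CD25pos, and 8.74 and 8.85 in GFPfoxp3, untreated first. Levels in the transduced cells were lower than all of these, at 6.02 (empty vector), 6.01 (PDE3B) and 6.31 (H801A). For neither chain did the GFPko arrays overlap with any other sorted array on the probe set used. On the next brightest Itga4 probe set, 1421194_at, they did. There GFPko read 8.48 and 8.18 without and with IL-2, CD25neg 8.29 and the transduced cells 8.32 to 8.68, so GFPko was not the highest.

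The chains of LFA-1 varied little. Itgal, the alpha L chain, read 11.94 in CD25neg, 12.60 and 12.65 in CD25pos without and with IL-2, 12.23 and 12.24 in GFPko, and 12.38 and 12.26 in GFPfoxp3. In transduced cells Itgal read 11.59 (empty), 11.68 (PDE3B) and 11.72 (H801A). CD25pos cells were highest and the transduced cells lowest, while the GFPko and GFPfoxp3 arrays followed each other within the SD of a difference of 0.14. Itgb2, the beta 2 chain, read 12.41 in CD25neg, 12.54 and 12.76 in CD25pos, 12.57 and 12.71 in GFPko, 12.54 and 12.45 in GFPfoxp3, and 12.09, 11.58 and 12.12 with the same 3 vectors. From one sorted array to the next lower one the Itgb2 gap never exceeded the SD of a difference of 0.17.

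The alpha 6 chain was lowest in CD25pos cells among the sorted populations and lower still in the transduced cells. Itga6 read 9.34 in untreated and 9.77 in IL-2-treated CD25pos cells, below 10.40 in CD25neg, 10.61 and 11.41 in GFPko and 11.20 and 11.39 in GFPfoxp3, untreated first. In the transduced cells it read 9.30 (empty vector), 9.11 (PDE3B) and 9.07 (H801A). The 3 transduced arrays and untreated CD25pos followed each other within the SD of a difference of 0.25, although the transduced cells had been chosen for CD25 before transfer and read 11.26 or more for Foxp3.

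The comparison of GFPfoxp3 with GFPko asks which transcripts differ where the Foxp3 locus is read and its protein is made or missing. The cells also came from different mouse lines, backcrossed for 8 to 10 and for 5 generations. Presence of the protein, mouse line and backcross cannot be told apart here. Limma called 3 of the 7 chains, 2 higher and 1 lower in GFPfoxp3, against 7.47% of all genes (5.44% higher and 2.03% lower, or 650 and 242 genes; 706 and 667 with each array centred on its median, with the same 3 chains called and Itgal, not called either way, turning negative). Itgae stood 19.9-fold above GFPko (4.31 log2 units, SE 0.11, adjusted p = 0.00371, higher in 2 of 2 pairs of arrays), the 9th largest difference by size of the 11939 genes. Itgb1 was 3.97-fold higher (1.99, SE 0.12, adjusted p = 0.00835, higher in 2 of 2 pairs). Itga4 was 1.61-fold lower (-0.68, SE 0.11, adjusted p = 0.0459, lower in both pairs), close to the threshold. The other 4 chains were not called, Itgb7, which pairs with Itgae and Itga4, differing by 0.30 (adjusted p = 0.240), Itga6 by 0.29 (adjusted p = 0.392), Itgal by 0.08 (adjusted p = 0.656) and Itgb2 by -0.14 (adjusted p = 0.527). The 2 arrays of each side did not overlap for 6 of the 7 chains, a state that 56% of all genes share. Without the GFPfoxp3, GFPfoxp3 after IL-2, GFPko or GFPko after IL-2 array, limma called 0 of 11939 genes at an adjusted p under 0.05, with 1 residual degree of freedom left and 1837, 1821, 3396 and 3467 genes at an unadjusted p under 0.05, at least 3 of the chains among them. Itgae then read 4.34, 4.29, 4.40 and 4.22 (adjusted p = 0.0816, 0.0748, 0.0617 and 0.0572), Itgb1 1.87, 2.10, 2.01 and 1.97 and Itga4 -0.74, -0.62, -0.63 and -0.74. Itga4 was also not called without either CD25pos array (adjusted p = 0.0933 each), nor with all 10 arrays in the fit (adjusted p = 0.224). As the mean of all its probe sets Itgb1 differed by 0.74 (adjusted p = 0.0335).

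**Figure D2:**
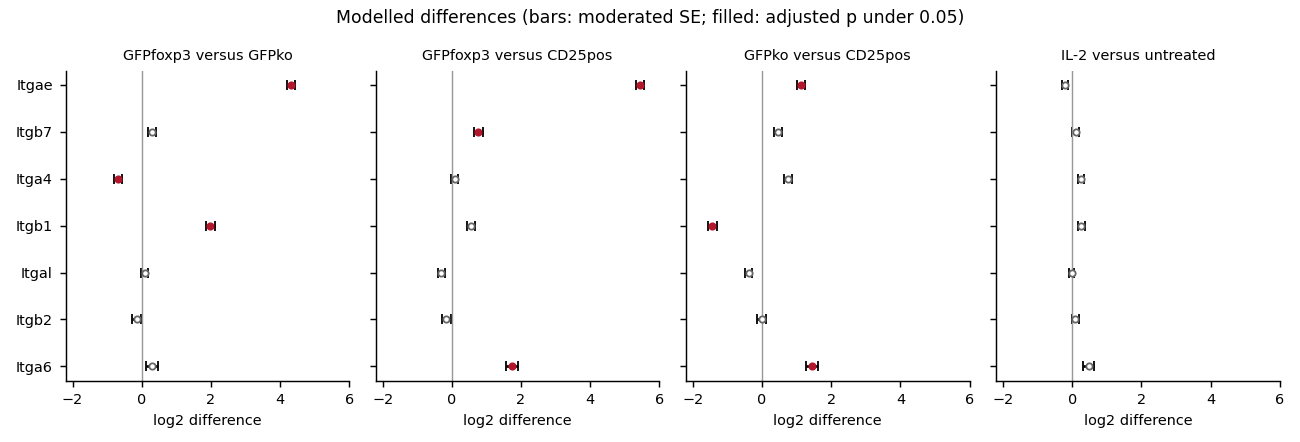
Modelled log2 difference (horizontal axis) of each of the 7 chains in 4 comparisons, as first-named minus second-named group, with bars for limma's moderated SE. Filled points have an adjusted p under 0.05, 3 chains in each comparison of populations and 0 for IL-2. Itgae lies farthest to the right, at 4.31 and 5.44, where GFPfoxp3 cells are the first group.

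GFPfoxp3 and CD25pos cells come from the same mouse line, the first gated as GFP+ and the second as GFP- CD25+. Il2ra, which encodes CD25, read 11.11 and 11.56 in GFPfoxp3 and 7.91 and 7.90 in CD25pos cells, untreated first. Limma called 3 chains, all higher in GFPfoxp3, against 8.73% of all genes (5.28% higher and 3.45% lower). Itgae was 43.3-fold higher (5.44, SE 0.11, adjusted p = 0.00402, higher in 2 of 2 pairs), Itga6 3.33-fold (1.74, SE 0.18, adjusted p = 0.0166, 2 of 2 pairs) and Itgb7 1.70-fold (0.76, SE 0.12, adjusted p = 0.0398, 2 of 2 pairs). Both chains of the E-cadherin receptor were thus called, the alpha chain by far the larger difference. Itgb1 differed by 0.55 (adjusted p = 0.0786), Itgal by -0.31 (adjusted p = 0.164), Itgb2 by -0.16 (adjusted p = 0.516) and Itga4 by 0.08 (adjusted p = 0.747). The dimmer Itga4 probe set 1456498_at, however, gave -1.24, and 1421194_at gave 0.14. The 2 arrays of each side did not overlap for 5 of the 7 chains, against 64.5% of all genes. Without either CD25pos array only Itgae was called among the 7 chains (5.37 without the untreated array and 5.50 without the other, adjusted p = 0.0361 and 0.0367). Without the untreated or the IL-2 array of GFPfoxp3 limma called 0 of 11939 genes, with 1771 and 1963 at an unadjusted p under 0.05, Itgae reading 5.46 and 5.41 (adjusted p = 0.0619 and 0.0609), Itga6 1.52 and 1.95 and Itgb7 0.65 and 0.88. With no filter on dim genes (18194 genes) Itgae alone was called, Itga6 having an adjusted p of 0.0559 and Itgb7 of 0.0764 in limma, and with all 10 arrays in the fit Itgb7 was not called (adjusted p = 0.0670).

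GFPko cells were set against CD25pos cells as another population without Foxp3 protein. Mouse line and backcross differ here too, and cannot be told apart from the difference in population. Limma called 3 chains, 2 higher and 1 lower in GFPko, against 3.48% of all genes (1.25% higher and 2.24% lower, or 149 and 267 genes; 443 and 415 with each array centred, where Itga4 was called too, at 0.90). Itga6 was 2.73-fold higher (1.45, SE 0.18, adjusted p = 0.0387, 2 of 2 pairs) and Itgae 2.18-fold higher (1.12, SE 0.11, adjusted p = 0.0266, 2 of 2 pairs), while Itgb1 was 2.71-fold lower (-1.44, SE 0.12, adjusted p = 0.0224, lower in both pairs). Itga4 differed by 0.76 (adjusted p = 0.0545), Itgb7 by 0.47 (adjusted p = 0.147), Itgal by -0.39 (adjusted p = 0.143) and Itgb2 by -0.01 (adjusted p = 0.984). Itgae therefore also differed between 2 populations without Foxp3 protein, by 1.12 log2 units against 5.44 for GFPfoxp3 and the same CD25pos arrays. The 2 arrays of each side did not overlap for 6 of the 7 chains, against 42.8% of all genes. Without any 1 of the 6 arrays limma called 0 of 11939 genes here, with 1407 to 3012 at an unadjusted p under 0.05, Itgae at 1.03 to 1.21, Itga6 at 1.20 to 1.70 and Itgb1 at -1.57 to -1.30. With no filter on dim genes limma called none of the chains, 0.0585 being the lowest adjusted p, that of Itgae, while 33 of 18194 genes were called. As the mean of all its probe sets Itgb1 differed by -0.56 (adjusted p = 0.0810). These 3 comparisons of populations share arrays with each other, so their calls are not independent.

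IL-2 given to the mice for a day called none of the 7 chains, and limma called 28 of all 11939 genes (0.235%, with 1261 at an unadjusted p under 0.05). Of the chains only Itga6 had an unadjusted p under 0.05. Itga6 changed by 0.43 in CD25pos, 0.80 in GFPko and 0.18 in GFPfoxp3 cells, a mean of 0.47 (SE 0.15, adjusted p = 0.433, higher in 3 of 3 populations). Itgae moved the other way, by -0.13, -0.34 and -0.18 in the same order, a mean of -0.22 (SE 0.09, adjusted p = 0.497, lower in all 3). Itga4 and Itgb1 were higher in 3 of 3 populations as well, by means of 0.25 (adjusted p = 0.473) and 0.26 (adjusted p = 0.495), although the second probe set of Itga4 changed by -0.30 in GFPko. In all, 4 of the 7 chains went the same way in all populations, against 35.2% of all genes. The Actb gap was narrower on each IL-2 array than on its untreated partner. It was 2.86 against 3.80 in CD25pos, 2.76 against 3.69 in GFPko and 2.70 against 3.07 in GFPfoxp3. The part of this gap in the shifts with IL-2 was not tested. No chain reached a 2-fold difference in any population, where 1.35% of genes did in CD25pos, 4.92% in GFPko and 1.95% in GFPfoxp3. Leaving out any of the 6 arrays, limma called 0 of 11939 genes for IL-2, with 885 to 1160 at an unadjusted p under 0.05, among them Itga6 where either GFPfoxp3 array was left out (0.61, adjusted p = 0.659) and none of the chains otherwise.

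**Figure D3:**
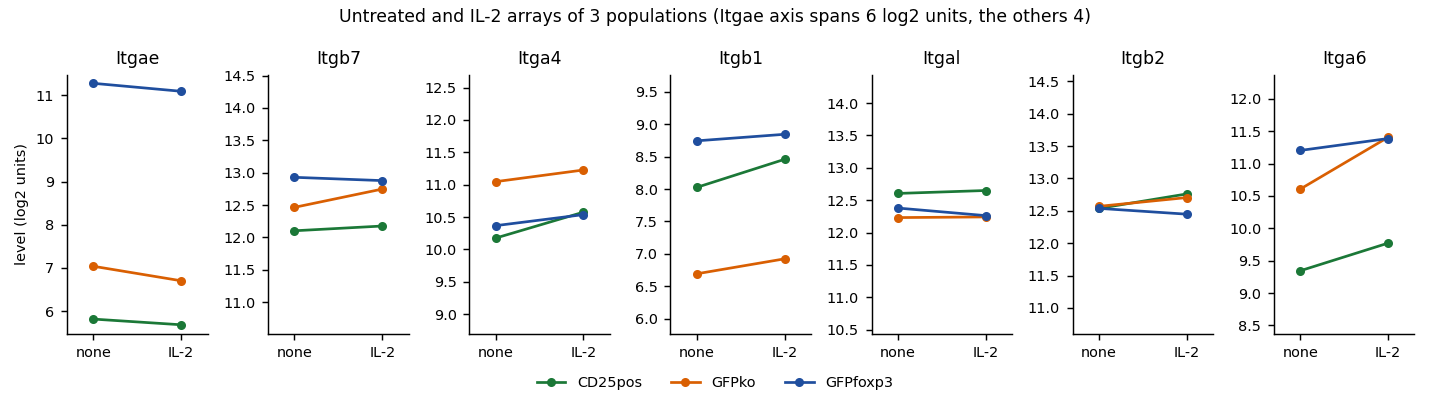
Level (log2 units, vertical axes) of each chain on the untreated array and on the array after IL-2, with a line for each of 3 populations. The Itgae axis spans 6 log2 units and the others 4. Itga6 slopes up most, by 0.80 in GFPko cells, and Itgae slopes down, by -0.13 to -0.34.

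CD25neg cells, the Foxp3-negative cells without CD25, served as the common reference of 3 further comparisons on single arrays, which therefore share that array. Against them CD25pos had 2 of the 7 chains at least 2-fold different, against 7.25% of all genes, Itgae at 1.59 and Itga6 at -1.06. GFPko also had 2, against 6.73%, Itgae at 2.81 and Itgb1 at -1.06. GFPfoxp3 had 1, against 10.9%, Itgae being higher by 7.05 (133-fold), the 3rd largest difference by size of all genes. Itgb1 stood just under the mark there, at 0.99, followed by Itga6 at 0.80 and Itgb7 at 0.56. On its second probe set Itgae differed from CD25neg by 0.58 in CD25pos, 1.62 in GFPko and 6.02 in GFPfoxp3. The second probe set of Itga6 gave -1.38 in CD25pos and 0.17 in GFPfoxp3, and that of Itgb1 gave 1.14 in GFPfoxp3. Itga4 differed by -0.39 in CD25pos, 0.48 in GFPko and -0.20 in GFPfoxp3 on the probe set used. Its dimmer probe sets departed from this, 1421194_at giving -0.82, 0.20 and -0.79 and 1456498_at 1.41, 3.02 and -0.32, in the same order. Itgal was higher than in CD25neg on all 3 arrays, by 0.66 in CD25pos, 0.29 in GFPko and 0.44 in GFPfoxp3.

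Among the transduced cells no chain differed 2-fold between vectors, where 5.44% of genes did for PDE3B against empty, 2.29% for H801A against empty and 3.04% for PDE3B against H801A. Itga4 differed by -0.60 for PDE3B and -0.91 for H801A against the empty vector on the probe set used. Its other probe sets did not share this direction, 1421194_at giving 0.07 and -0.28, 1456498_at 1.72 and 1.36 and 1427615_at 1.55 and -0.05, in the same order. Itgb7 and Itgb2 were at -0.55 and -0.52 for PDE3B against the empty vector, and at -0.34 and -0.54 for PDE3B against H801A. On the probe sets used Itgae spanned 0.05 over the 3 vectors, Itgal 0.13 and Itga6 0.23. Against the empty vector the second Itgae probe set differed by -0.89 for PDE3B and -0.61 for H801A, and the second of Itga6, 1422444_at, by 0.58 and 0.30. Pde3b, which breaks down cAMP, read 7.43 (empty vector), 6.91 (PDE3B) and 7.54 (H801A), the lowest of the 3 being the array labelled PDE3B, and where the probe set lies relative to the vector's insert was not analysed here. The PDE3B array also had the widest Actb gap (6.38) and the lowest Cd4 (8.05), whose part in these differences was not tested.

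The transduced cells differed from the freshly sorted ones in both directions. On the probe sets used Itgae was higher on all 3 transduced arrays than on any sorted one, and Itgb1, Itgal, Itgb2 and Itga6 were lower, so 5 of the 7 chains did not overlap, against 42.8% of all genes. On 1449216_at Itgae did overlap, at 10.92 with PDE3B and 10.93 in GFPfoxp3 cells. Mean levels were 12.94 in the transduced and 11.18 in the GFPfoxp3 cells for Itgae, 6.12 and 8.79 for Itgb1, and 9.16 and 11.29 for Itga6. Culture, transduction, transfer, the final sort for GITR and the wider Actb gap cannot be told apart here.

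The further probe sets of a chain were set beside the one used. The second Itgae probe set, 1449216_at, differed by 4.48 between GFPfoxp3 and GFPko, 5.58 between GFPfoxp3 and CD25pos and 1.10 between GFPko and CD25pos, close to the 4.31, 5.44 and 1.12 of the one used, 1447541_s_at, whose identifier marks possible cross-matching. Between CD25pos and CD25neg it differed by 0.58 and not 1.59, so that step was under 2-fold. Over the empty, PDE3B and H801A vectors 1449216_at read 11.82, 10.92 and 11.20, where the other was flat. For Itgb1, probe set 1452545_a_at differed by 2.03 between GFPfoxp3 and GFPko against 1.99, and by -1.36 against -1.44 between GFPko and CD25pos, where it was not called (adjusted p = 0.0769). The other 4 Itgb1 probe sets read at most 5.27 and varied less. For Itga4 the next brightest, 1421194_at, gave -0.67 against -0.68 between GFPfoxp3 and GFPko (adjusted p = 0.143), and 1456498_at gave -2.85. Between GFPfoxp3 and CD25pos they gave 0.14 and -1.24 against 0.08, and between GFPko and CD25pos 0.81 and 1.61 against 0.76. In the transduced cells, however, 1421194_at read 8.61 (empty vector), 8.68 (PDE3B) and 8.32 (H801A), against 7.47 to 8.48 in the sorted cells, and 1456498_at was higher with PDE3B than with the empty vector by 1.72. The second Itga6 probe set, 1422444_at, gave 1.64 against 1.74 between GFPfoxp3 and CD25pos and 1.68 against 1.45 between GFPko and CD25pos, but -0.04 against 0.29 between GFPfoxp3 and GFPko. The second Itgal probe set, 1425367_at, read 2.12 to 4.26 and lay below the array median with the empty vector. Itgb7 and Itgb2 had 1 probe set each.

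**Figure D4:**
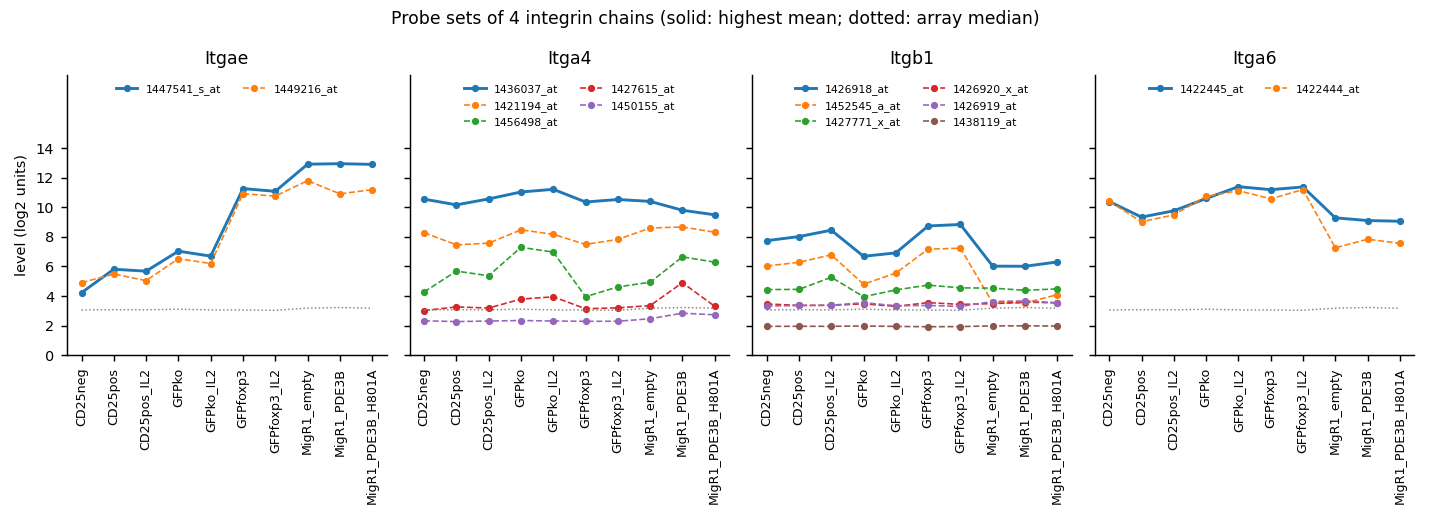
Level (log2 units, vertical axis) of every probe set of Itgae, Itga4, Itgb1 and Itga6 on the 10 arrays (horizontal axis), where lines only join the points of 1 probe set, the solid line is the probe set used and the dotted line is the array median. Both Itgae probe sets rise to 10.77 or more in GFPfoxp3 and transduced cells, and the Itga4 probe sets part in the transduced cells.

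Other integrin chains were counted from a list of 19 chosen with earlier results of these data known, as were the lists below. Of these, 9 passed the filter, and between GFPfoxp3 and GFPko 2 were higher and 1 lower in GFPfoxp3 (of all genes 5.44% were higher and 2.03% lower), with a median difference of -0.02 beside 0.01 over all genes. Itgb8, the beta chain that with alpha V activates latent TGF-beta, was higher by 3.37 (SE 0.18, adjusted p = 0.00771), and Itgav, that alpha V chain, by 0.81 (SE 0.12, adjusted p = 0.0380). Itgb3, another partner of alpha V, was lower (-1.52, adjusted p = 0.0124). The same chains were called between GFPfoxp3 and CD25pos, with Itgb8 at 3.53, Itgav at 1.10 and Itgb3 at -1.82, and none between GFPko and CD25pos, where of all genes 8.73% and 3.48% were called in these 2 comparisons. Itgb5 read 7.77 and 7.64 in CD25pos, 7.58 and 6.22 in GFPko and 5.73 and 5.70 in GFPfoxp3, untreated first. Limma did not call it, though GFPfoxp3 differed from CD25pos by -1.99 (SE 0.37, adjusted p = 0.0555) and from GFPko by -1.19 (adjusted p = 0.147). Itgb5 was read by a probe set marked for cross-matching. Itga1, Itga3, Itga5, Itga7 and Itga9 read at most 5.35 on any array and were not called.

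Of 11 ligands 5 passed the filter, of which 2 were called between GFPfoxp3 and GFPko, 1 between GFPfoxp3 and CD25pos and 1 between GFPko and CD25pos, against 7.47%, 8.73% and 3.48% of all genes. Their median differences were -0.08, -0.02 and 0.06, beside 0.01, -0.03 and -0.01 over all genes. Icam1, the ligand of LFA-1, was higher in GFPfoxp3 than in GFPko by 1.73 (SE 0.10, adjusted p = 0.00826) and than in CD25pos by 0.65 (adjusted p = 0.0374), and lower in GFPko than in CD25pos (-1.08, adjusted p = 0.0266). Vcam1, the ligand of alpha 4 beta 1, was lower in GFPfoxp3 than in GFPko (-1.51, adjusted p = 0.0397). It read 3.05 and 3.06 in GFPfoxp3, below the array median on 1 of the 2 arrays, and 4.20 and 4.92 in GFPko without and with IL-2. The myeloid marker Lyz2 read 3.36 and 5.71 on those GFPko arrays and 3.28 and 3.55 in GFPfoxp3, and its part in the Vcam1 difference was not tested. Cdh1, the E-cadherin that Itgae binds, read 3.01 to 3.79 over the 10 arrays, near the array medians.

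Of 23 genes of integrin activation, the route from Rap1 to talin and kindlin that switches integrins to high affinity, 20 passed the filter, of which GFPfoxp3 had 1 higher and 2 lower against GFPko, where 5.44% and 2.03% of all genes were (median 0.08 beside 0.01 over all genes). Rhoh, a GTPase that restrains LFA-1, was higher by 1.24 (adjusted p = 0.0288). Rasgrp2, the exchange factor that loads Rap1, was lower (-1.74, adjusted p = 0.00826), as was Apbb1ip, the adaptor RIAM between Rap1 and talin (-1.16, adjusted p = 0.0344). Rasgrp2 was read by a probe set marked for cross-matching. Between GFPfoxp3 and CD25pos 2 were higher, Rhoh (1.58) and the adaptor Skap2 (0.74), and 1 lower, Rasgrp2 (-0.74), against 5.28% and 3.45% of all genes, with a median of 0.17 beside -0.03. Between GFPko and CD25pos Rasgrp2 alone was called, higher by 1.00, where 1.25% of all genes were higher (median 0.10 beside -0.01). Tln1 (talin) and Fermt3 (kindlin-3) were not called in any of the 3 comparisons. Of 15 genes that link integrins to actin only Actn1, an actin crosslinker, was called, against 7.47% and 8.73% of all genes in the 2 comparisons concerned. It was lower in GFPfoxp3 than in GFPko (-1.34, adjusted p = 0.0179) and than in CD25pos (-1.36, adjusted p = 0.0146), and the list's medians were 0.01 and -0.04. Of 8 tetraspanins and lateral partners GFPfoxp3 had 2 higher and 2 lower against GFPko, where 5.44% and 2.03% of all genes were: Cd81 (1.03) and Cd82 (0.84), and Cd9 (-1.24) and Cd47 (-0.73), with a median of 0.08. Cd81 was higher than in CD25pos too, by 1.40, and Cd226 lower (-0.75), with 1 GFPfoxp3 array below its median, where 5.28% and 3.45% of all genes were higher and lower. Cd82 was lower in GFPko than in CD25pos (-0.89), where 2.24% of all genes were lower. IL-2 called none of these lists' genes.

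Of 6772 genes with a range of at least 1 log2 unit, those most like Itgae over the 10 arrays were Itgav (Pearson r = 0.991), Itgb8 (0.991) and Anxa4 (0.991), and over the 7 sorted arrays these reached 0.987, 0.978 and 0.983. Over the 7 sorted arrays alone other genes came first, Lclat1 (0.997), Klc3 (0.996) and Tnfrsf1b (0.996), which over the 10 arrays reached 0.880, 0.844 and 0.974. The arrays fall into clusters, and many genes with high levels in GFPfoxp3 and transduced cells must reach such values. Itgb8 read 8.70 and 8.68 in GFPfoxp3, 9.65 to 9.80 in the transduced and 4.49 to 5.57 in the other cells, and Itgav 9.93 and 9.97, 10.49 to 10.57 and 8.65 to 9.26. The genes most like the other chains over 10 arrays were Cd2, Lrrc8c and Sytl1 for Itgb7 (0.933 to 0.926), Snhg16, Dnah8 and Kin for Itga4 (0.949 to 0.935), and Pgap6, Cd7 and Adk for Itgb1 (0.973 to 0.958). They were Ipo5, Spcs3 and Nop16 for Itgal (0.970 to 0.966), Fech, Dip2b and Nol9 for Itgb2 (0.987 to 0.974) and Tspan32, Atp8b2 and Wdr82 for Itga6 (0.963 to 0.954). Over the 7 sorted arrays Kin reached 0.819 and Nol9 0.657, and the other genes named for these chains 0.904 or more. There too other genes came first, such as Pigc for Itgb2 (0.984, and 0.895 over 10 arrays) and Phc3 for Itga6 (0.985, but -0.066 over 10 arrays). Among the chains themselves the 7 sorted arrays gave 0.822 for Itgae with Itgb7, 0.959 for Itga6 with Itgb7, and -0.779 for Itga4 with Itgb1, the most extreme pairs. All 10 arrays gave 0.307, 0.747 and 0.231 for these, over arrays that share mouse lines and normalization. Other chains that pair gave 0.588 (Itgal with Itgb2), 0.258 (Itga4 with Itgb7) and -0.032 (Itga6 with Itgb1) over the sorted arrays. Over all 10 arrays they gave 0.818, 0.370 and 0.546.

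**Figure D5:**
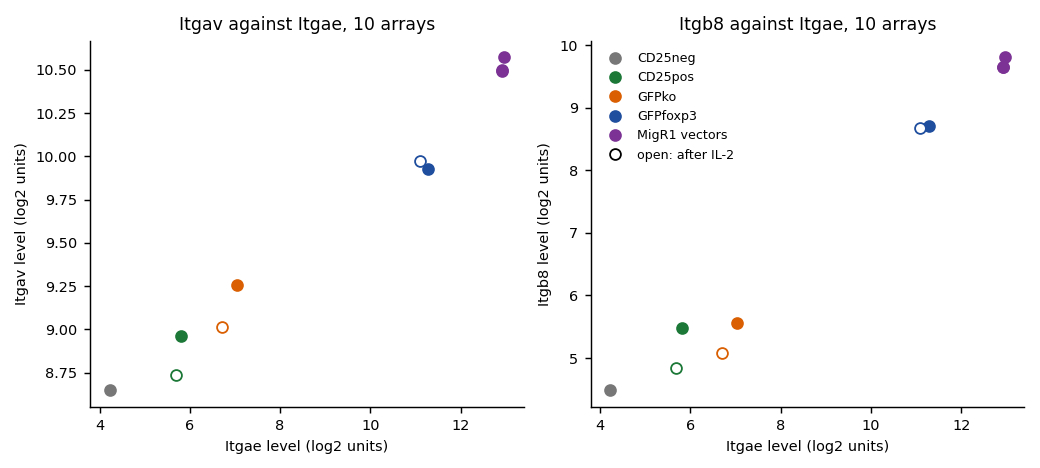
Levels of Itgav and Itgb8 (log2 units, vertical axes) against the level of Itgae (log2 units, horizontal axis), with 1 point per array and open points after IL-2. The arrays fall into clusters, with the sorted cells that lack Foxp3 protein at the lower left, GFPfoxp3 cells apart from them and the 3 MigR1 arrays at the upper right.

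Markers of CD4 T cells were present throughout, all 5 measured lying above the median on all arrays. Of 7 measured markers of CD8 T and NK cells, cells that can carry Itgae, Ncr1 was below the median on all arrays. Cd8a, at 3.13 to 3.30, and Cd8b1 were at or above it on all 10. Cd8b1 read 4.86 and 5.53 in GFPko without and with IL-2 and 5.05 in CD25neg. It was lower in CD25pos (4.47 and 4.48), GFPfoxp3 (4.26 and 4.41) and the transduced cells (3.69 to 4.30). The summed level of this list was highest in CD25pos (2393 and 2780 without and with IL-2) and lower in GFPfoxp3 (190 and 214) and GFPko (148 and 240), with 809 in CD25neg, 1085 for the empty vector, 1009 for PDE3B and 714 for H801A. Klrd1 read 8.88 to 9.46 in the GFP- cells and at most 4.57 elsewhere. Eomes read 9.41 and 8.51 in CD25pos, 6.13 in CD25neg and at most 4.49 elsewhere. Nkg7 read 10.19 and 10.69 in CD25pos, 9.35 to 10.00 in the transduced cells and 6.26 to 7.76 in the others. Of 8 measured markers of myeloid and dendritic cells 3 or 4 were at or above the median, Itgax, Flt3, Batf3 and Cd14 being below it on every array, and the summed level ran from 248 to 567. Of 7 measured B cell markers 3 or 4 were at or above the median, and their summed level was 4884 and 4500 in GFPfoxp3, 5996 to 6814 in the transduced cells, 1388 and 975 in GFPko and 2235 to 2994 in the GFP- cells, in part the order of Itgae. Cd79a and Pax5, which define B cells, were below the median on every array. Cd79b read 3.06 to 3.88 in the GFP- cells, 5.02 and 5.36 in GFPko, 6.71 and 6.96 in GFPfoxp3 and 6.77 to 8.23 in the transduced cells, the last 2 overlapping. Cd74 read 3.67 to 4.56 in the GFP- and GFPko cells, 6.96 and 7.02 in GFPfoxp3 and 8.56 to 9.03 in the transduced cells. Ighm read 9.81 to 11.52 in the GFP- and GFPko cells, 12.04 and 12.18 in GFPfoxp3 and 12.42 to 12.57 in the transduced cells. Of the gamma delta T cell list 2 genes were measured, and Sox13 was below the median on every array. Trgv4 read 9.43 and 9.67 in CD25pos, 8.48 and 9.25 in GFPko, 5.83 and 6.17 in GFPfoxp3 and 5.04 in CD25neg. With the empty, PDE3B and H801A vectors Trgv4 read 2.60, 3.87 and 3.34, the first below the median. None of 6 platelet and erythroid markers reached the median on any array, and of 6 fibroblast and endothelial markers Pecam1 alone did, on 7 arrays. The part of the CD8 and NK, B cell and gamma delta signals in the integrin differences was not tested.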

How the data were processed

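RNA of sorted CD4 T cells was extracted with Stat-60, amplified in 2 rounds with a MessageAmp II kit and hybridised to Affymetrix mouse 430 2.0 arrays, per the labels' protocols. The deposited table holds log2 values; per the labels and design text the authors normalized both experiments jointly. The log2 scale was read from the values. Background correction, probe summary and software: not given in the sources used here. Amplification in 2 rounds starts at the 3′ end, so probe sets farther from it lose signal first.

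Of 45101 probe sets 34958 had 1 gene in the platform annotation, 932 several and 9211 none listed. Symbols were updated by Entrez ID through the gene table of GRCm38.p6, which matched 34754. Probe sets at or above the array median on at least 1 array were kept, and each gene was read by the one with the highest mean (11939 genes). Samples were grouped by title. Limma 3.58.1 in R 4.3.3 (lmFit, eBayes) fitted population and IL-2 additively over 6 arrays, with a prior of 2.23 degrees of freedom and an SD of 0.129. The number of arrays limits the precision. The fit was tested on simulated data with independent noise and no differing responses to IL-2. Such data cannot tell whether calls here would hold in replicate mice. The SD of a difference is that of 2 single arrays, from each gene's moderated residual SD, and for the 4 arrays outside the fit it is assumed.

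The chains and lists were chosen with earlier results of these data known. The text names the 7 chains, up to 4 called genes of each list per modelled comparison, other integrin chains that pass the filter, the 3 genes most like each chain, and genes that check sorts and labels. Promoters are RefSeq's, and motifs were matched to the letter. Alternatives covered normalization, centring, the filter, the probe set, the variance model, the arrays in the fit and the thresholds.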

Additional observations from a re-analysis of the deposited data

How the results depend on the processing

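The number of chains called or past 2-fold was higher by over 1.5 times in 3 of the combinations of comparison and setting, each a rise of 1 chain. It was lower by over 1.5 times in 22, and no called difference turned its direction. Smaller moves, from 3 chains to 2 or to 4, are not counted in these. Leaving out 1 of the 6 arrays gave 0 to 2 chains called for GFPfoxp3 against GFPko, 0 to 3 for GFPfoxp3 against CD25pos and 0 for GFPko against CD25pos, where 3 were called with all 6; these fits keep 1 residual degree of freedom, and IL-2 gave 0 throughout. With no filter on dim genes 1 chain was called for GFPfoxp3 against CD25pos and 0 for GFPko against CD25pos, over 18194 genes tested. Against CD25neg, CD25pos had 1 chain past 2-fold without probe sets marked for cross-matching or with the second probe set, and 1 past 3-fold; GFPko had 1 with each array centred or with the mean of a gene's probe sets, and 1 past 3-fold; GFPfoxp3 had 2 with the second probe set, Itgb1 joining at 1.14. With the second probe set, PDE3B and H801A each had 1 chain past 2-fold against the empty vector, the dim second probe set of Itgal. Counts over all genes moved by more than 1.5 times in some settings. GFPfoxp3 against GFPko gave 892 genes, but 1373 when centred, 382 unfiltered, 590 with the second probe set, 578 past 2-fold as well and 408 without either CD25pos array. GFPfoxp3 against CD25pos gave 1042, but 609 unfiltered, 685 with the second probe set, 634 past 2-fold as well, and 167 and 182 without the untreated or IL-2 CD25pos array. GFPko against CD25pos gave 416, but 858 when centred, 33 unfiltered and 176 with the second probe set. IL-2 gave 28, but 0 after quantile normalization, unfiltered, without cross-matching probe sets, with the second probe set or with an intensity trend, and 121 when centred, 53 with a filter on the mean and 59 with all 10 arrays. Centring moved the median of all genes by -0.14 for GFPfoxp3 against GFPko and by 0.13 for GFPko against CD25pos. The cause of these changes was not tested. No paired analysis was possible because each group has 1 array, so the groups share fewer than 2 replicate numbers; the fit already compares arrays within IL-2 states. With 1 array per group, the number of arrays limits all of this.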
